A study of Homo sapiens with 18 samples.

Results

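The centromere is the stretch of each chromosome on which the kinetochore is built, the protein structure that holds spindle microtubules during cell division. This report follows 33 genes for centromere and kinetochore proteins, out of 58302 genes in the deposited table. They were chosen by name for what their proteins do, but with earlier results of these data known. All 33 were found in the table once and all 33 passed the filter on low values in every comparison. They comprise CENPA and the genes that load its protein (4 genes), the constitutive centromere-associated network or CCAN (13), the Mis12 complex (4), the Knl1 complex (2), the Ndc80 complex (4), the Ska complex (3), the fibrous corona (2) and CENPJ. CENPJ carries the letters of the family but encodes a centriole protein, so it is kept apart from the kinetochore classes.

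RNA sequencing had been carried out on TPC1, a human cell line of papillary thyroid cancer origin, and on D11, a single Dicer1 (+/-) clone obtained from it by CRISPR-Cas9 editing. Each line was left non-transfected (NT) or was given a negative control siRNA (NC) or an siRNA against Dicer1 (siDicer), both at 5 nM, and RNA was taken on day 4 after transfection. With 3 replicates in each of 6 groups there were 18 libraries. For each line, NT and NC were joined into 1 control group of 6 libraries, and D11 carries the heterozygous Dicer1 loss in its control libraries too. The methods speak of independent repeats for all experiments in general, but the labels do not tie replicates to separate cultures, so p-values measure the spread between these libraries, which may be technical.

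In every cell cycle the centromere is marked by nucleosomes that hold the histone variant CENP-A. The CCAN sits on these nucleosomes throughout the cycle, while the Mis12, Knl1 and Ndc80 complexes, the Ska complex and the corona proteins join for mitosis and hold the microtubules. New CENP-A is loaded after division by the Mis18 complex and the chaperone HJURP. Many of these genes are transcribed mostly in S phase, G2 or mitosis, and the DREAM repressor complex and its activating counterpart bind CHR elements or E2F sites in the promoters of such genes. CCAAT boxes, bound by the factor NF-Y, often stand beside a CHR.

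Values are normalised read counts per 20 M reads. Depth was 11.3 to 23.2 M reads per library, and 3 reads corresponded to 2.58 to 5.32 units, while the lowest value of any of the 33 genes was 103. DICER1 lay at 1397 to 2492 in the TPC1 control libraries and 246 to 395 in siDicer, and at 655 to 1536 and 277 to 451 in D11. Within the controls, every NC library lay above every NT library. TPC1 had 1901 to 2492 in NC against 1397 to 1582 in NT, and D11 had 1407 to 1536 against 655 to 1157. The log2 changes were 0.58 and 0.71 (limma adjusted p 0.133 and 0.153). Replicate 2 of siDicer kept the most DICER1, with 21.1% of its mean control level in TPC1 and 38.1% in the clone, against 13.1% to 25.1% in the other siDicer libraries. For 12 of the 18 samples the title and the description disagree on the group. The titles follow the replicate number, so each title group mixes NT, NC and siDicer libraries of the descriptions. The descriptions were used, since DICER1 was low in every library that they name siDicer. The thyroid factor PAX8 (7361 to 14886) was present in all libraries, while NKX2-1 was listed at 0 in all 18 and TSHR and SLC5A5 did not exceed 2. Epithelial markers were divided. The keratin genes KRT8 (5715 to 13581), KRT18 (2908 to 6564) and KRT7 (150 to 455) were present in all libraries. KRT19 and CDH1 did not exceed 8, and EPCAM did not exceed 6. The summed levels of 5 immune and 4 endothelial markers stayed at 2 to 28.

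Promoters are shown first, because the members turned out to differ in the elements they hold. RefSeq windows of 300 bases (GRCh38.p14, 250 bases before the start site and 50 after) were found for 27 of the 33 members, some with several windows, 31 in all. CENPL, MIS18A, CENPH, KNL1, CENPJ and CENPM were not matched. Both strands were searched. The letters of a CHR were TTTGAA, with TTCGAA counted as well. The letters of a CCAAT box were those of its name. The E2F letters were TTTCGCGC, TTTGGCGC, TTTCCCGC and TTTGCCGC, and no match of one kind was removed for lying on another. The 130 bases upstream of the start are printed 5′ to 3′ on the gene's strand, with these letters in capitals, for the 3 matched members among the 4 with the smallest adjusted p in D11 (OIP5, SPC25 and CENPU, the other being CENPM) and for the 2 with the largest (CENPT and NSL1).
OIP5: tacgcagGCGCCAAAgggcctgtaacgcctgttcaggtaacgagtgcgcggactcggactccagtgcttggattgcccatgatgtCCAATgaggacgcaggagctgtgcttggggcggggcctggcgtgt
SPC25: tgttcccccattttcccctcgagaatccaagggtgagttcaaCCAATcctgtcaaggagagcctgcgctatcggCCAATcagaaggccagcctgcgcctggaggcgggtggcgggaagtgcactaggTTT
CENPU: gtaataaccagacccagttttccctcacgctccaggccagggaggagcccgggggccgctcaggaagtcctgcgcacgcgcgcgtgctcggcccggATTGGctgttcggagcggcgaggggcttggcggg
CENPT: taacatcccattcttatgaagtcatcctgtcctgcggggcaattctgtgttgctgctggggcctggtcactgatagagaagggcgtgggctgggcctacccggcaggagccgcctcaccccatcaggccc
NSL1: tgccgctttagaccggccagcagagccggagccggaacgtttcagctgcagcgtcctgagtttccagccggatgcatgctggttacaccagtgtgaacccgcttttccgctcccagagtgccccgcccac
These lie on the minus strand, at chr15:41332592-41332721 for OIP5, chr2:168890431-168890560 for SPC25, chr4:184734097-184734226 for CENPU, chr16:67847694-67847823 for CENPT and chr1:212791778-212791907 for NSL1. The capitals in OIP5 are an E2F match on the opposite strand (GCGCCAAA) and CCAAT. In SPC25 they are a pair of CCAAT and the first letters of a CHR that runs over the start site. In CENPU they are CCAAT on the opposite strand, and its E2F match lies farther upstream. No match stood in the windows of CENPT and NSL1, nor in those of CENPI, DSN1 and CENPE, of which CENPI and CENPE were called lower in both lines. The CENPI window (101100808 to 101101107) lies inside the GENCODE gene, so the promoter at the gene's start, 101098188, was not searched. Windows of other members, such as CENPA, NUF2 and SPC25, also lie inside their GENCODE genes.

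Over all matched members, a CHR was found in 48.4% of the 31 windows, against 16.4% of 35116 windows of the whole RefSeq table. CCAAT stood in 61.3% against 34.6%, E2F letters in 16.1% against 3.31%, and CHR together with CCAAT in 32.3% against 6.38%. By member, 14 held a CHR, among them CENPA, HJURP, OIP5, NDC80, NUF2, SPC25 and CENPF, and 17 held CCAAT. CENPP is among the 17 only through a window at 92600007 to 92600306, inside the gene, which starts at 92325953. E2F letters were found in CENPA, OIP5, CENPU and MIS12. None of the 4 Mis12 complex genes held a CHR, against 3 of 4 Ndc80 complex genes. A match is a description of letters, not of a bound site.

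The first question was whether Dicer1 knockdown altered the centromere and kinetochore genes of the parental line. A call required a limma adjusted p below 0.05 and a change of at least 1.5-fold. In TPC1, 10 of 33 members were called lower in siDicer, where 4.16% of 18475 genes tested were called lower. No member was called higher (3.22% of all genes were, and voom on recovered reads also gave 0), and 27 members had an unadjusted p under 0.05 (30.5% of all genes). The log2 change lay below 0 in 32 of 33 members, with a median of -0.50 against -0.037 over all genes. Called were HJURP, OIP5, CENPI, CENPM, CENPQ, CENPU, MIS12, NUF2, SPC25 and CENPE. In 7 members every siDicer library lay below every control library (9.91% of all genes).

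In D11, where the same siRNA acted on heterozygous cells, 20 of 33 members were called lower (6.75% of 18413 genes) and 0 higher (5.26%; 0 with voom too), and 28 had an unadjusted p under 0.05 (35.5%). The median change was -0.62, against -0.040 over all genes, and 24 members lay lower in every siDicer library than in every control library (14.1%). The same 9 genes, HJURP, OIP5, CENPI, CENPM, CENPQ, CENPU, NUF2, SPC25 and CENPE, were called in both lines, MIS12 in TPC1 alone, and 11 members in D11 alone. Called in neither line were CENPC, CENPL, CENPO, CENPP, CENPT, DSN1, NSL1, PMF1, KNL1, NDC80, SKA2 and CENPF. Of these, CENPL, CENPO, DSN1, NDC80 and CENPF passed the test in D11 and missed only the fold change minimum. Without that minimum 26 members were lower in D11 (12.8% of all genes). The plot of changes by role sets both lines side by side.

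**Figure D1:**
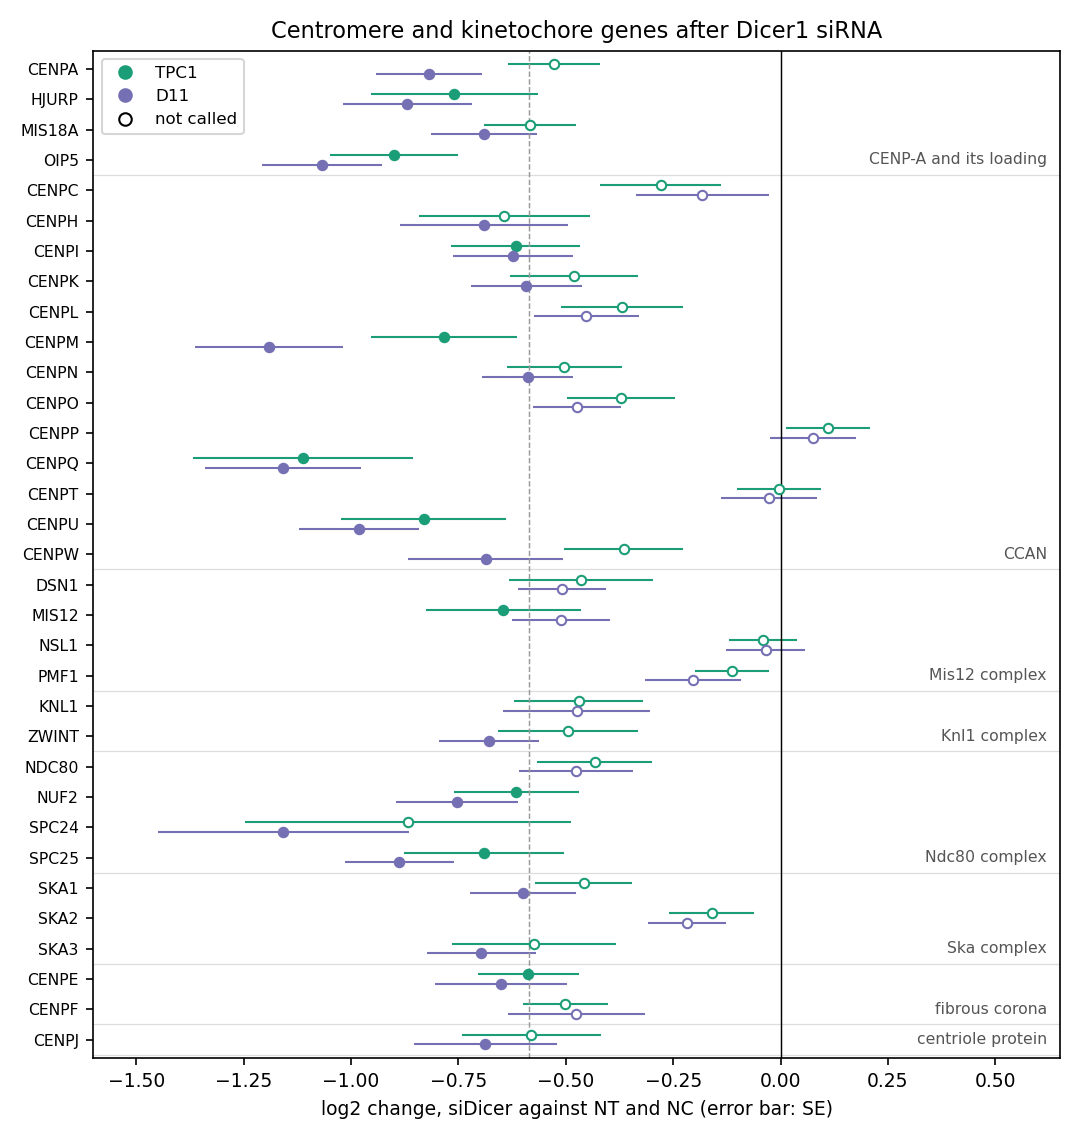
Log2 change of each of the 33 members in siDicer against the 6 control libraries, in TPC1 (green) and D11 (purple), by role of the protein. Bars are SE, filled points were called (adjusted p below 0.05 and beyond the dashed line at 1.5-fold), and CENPP alone lies above 0 in both lines.

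The TPC1 count rested on single libraries. It was 1 without siDicer replicate 1 (1.56% of all genes called lower), 2 without siDicer replicate 3 (1.41%) and 23 without siDicer replicate 2 (6.83%), so the share over all genes moved the same way. It was 6 without NT replicate 1 (3.16%) or NC replicate 2 (3.57%), 4 against NT alone (2.74%) and 5 against NC alone (3.09%). The D11 count was 11 without siDicer replicate 3 (4.27%) and 14 to 26 in the other settings that left out a library (5.19% to 7.44%). Leaving out the NT and siDicer libraries numbered 2 together, a choice made after seeing the data, gave 23 in TPC1 (7.84%) and 22 in D11 (6.20%).

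Replicate 2 of siDicer stood closer to the controls than the other siDicer libraries in both lines. In TPC1 the median difference of the 33 members from the control mean was -0.74, -0.18 and -0.64 on the log2 scale in siDicer replicates 1, 2 and 3. In D11 it was -0.71, -0.35 and -0.78. Of the 33 members, 29, 7 and 28 lay below every control library in the 3 TPC1 siDicer libraries, and 30, 24 and 30 in D11. Shares over all genes were not computed for single libraries. A single library also falls below all controls more easily than 3 do, so these counts only compare libraries. A control library also stood apart: TPC1 NT replicate 2 had a median of -0.20 and the lowest control value of 24 members, while the medians of the other TPC1 control libraries were -0.043 to 0.13. Replicate 2 of siDicer was also the library with the most DICER1 left in each line, and the part of that in the result was not tested.

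**Figure D2:**
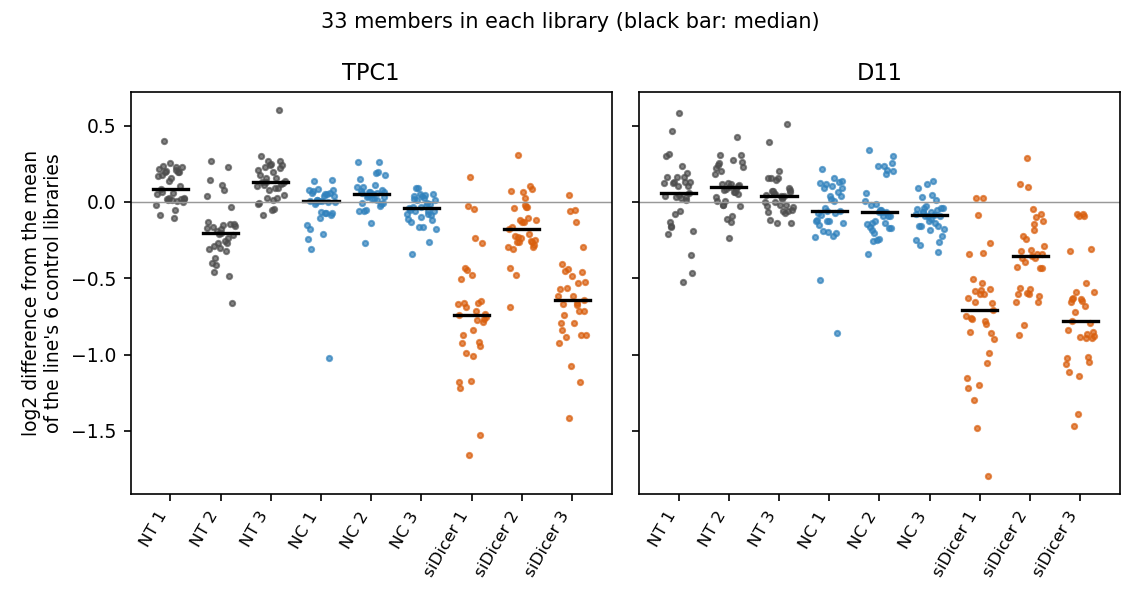
Log2 difference of each member (point) from the mean of the 6 control libraries of its line, by library, with the median as a black bar. The bars of siDicer replicates 1 and 3 lie at -0.64 to -0.78, and that of TPC1 siDicer replicate 2 (-0.18) is level with TPC1 NT replicate 2 (-0.20).

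CENPA and the genes of its loading machinery fell together in D11. All 4 were called lower in D11 and HJURP and OIP5 in TPC1, with median changes of -0.84 and -0.67. CENPA (ENSG00000115163, chromosome 2, 26764289 to 26801067, GRCh38) encodes the histone variant itself. It was at 641, 669 and 701 in NT replicates 1 to 3 of TPC1, 587, 697 and 616 in NC, against 408, 531 and 424 in siDicer. D11 held 720, 748 and 660 in NT, 561, 661 and 624 in NC, against 393, 419 and 316 in siDicer. No siDicer library of either line reached a control value. The change was -0.82 in D11 (SE 0.12, limma adjusted p 0.000952) and -0.53 in TPC1 (SE 0.11, limma adjusted p 0.0107), where it stayed under the fold change minimum.

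OIP5 (ENSG00000104147, chromosome 15, 41309273 to 41332591), which encodes the Mis18-beta subunit, had the smallest adjusted p of the set in both lines. Its TPC1 values were 364, 252 and 311 in NT, 314, 347 and 302 in NC, against 134, 194 and 180 in siDicer. The D11 values were 369, 332 and 368 in NT, 313, 260 and 351 in NC, against 141, 180 and 152 in siDicer, so siDicer held 53.8% (TPC1) and 47.5% (D11) of the mean of the controls. The changes were -0.90 (SE 0.15, limma adjusted p 0.00473) and -1.07 (SE 0.14, limma adjusted p 0.000453), and both were called in 22 of 22 settings that kept the groups of the descriptions. Antisense genes cover 92.5% of the exonic bases of OIP5, and whether the counting used strand is not stated. MIS18A, the partner subunit, was at 346 to 426 in the TPC1 controls and 226, 280 and 255 in siDicer, a change of -0.58 (SE 0.11, limma adjusted p 0.00715) just short of the minimum of 0.585 on the log2 scale, and it was called against NT alone (-0.59). In D11 it went from 388 to 528 in the controls to 277, 282 and 239, a change of -0.69 (SE 0.12, limma adjusted p 0.00225). HJURP, the chaperone, had siDicer values of 1142, 2284 and 1362 in TPC1 against controls of 2180 to 3104, so replicate 2 overlapped the controls. Its D11 siDicer values of 1053, 1744 and 1157 all lay below the lowest control, 1974. The TPC1 call of HJURP (-0.76) was lost in 7 of 22 settings, among them NT alone (-0.79), NC alone (-0.73) and leaving out siDicer replicate 1 (-0.55) or 3 (-0.68), and the D11 call (-0.87) in 0 of 22.

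**Figure D3:**
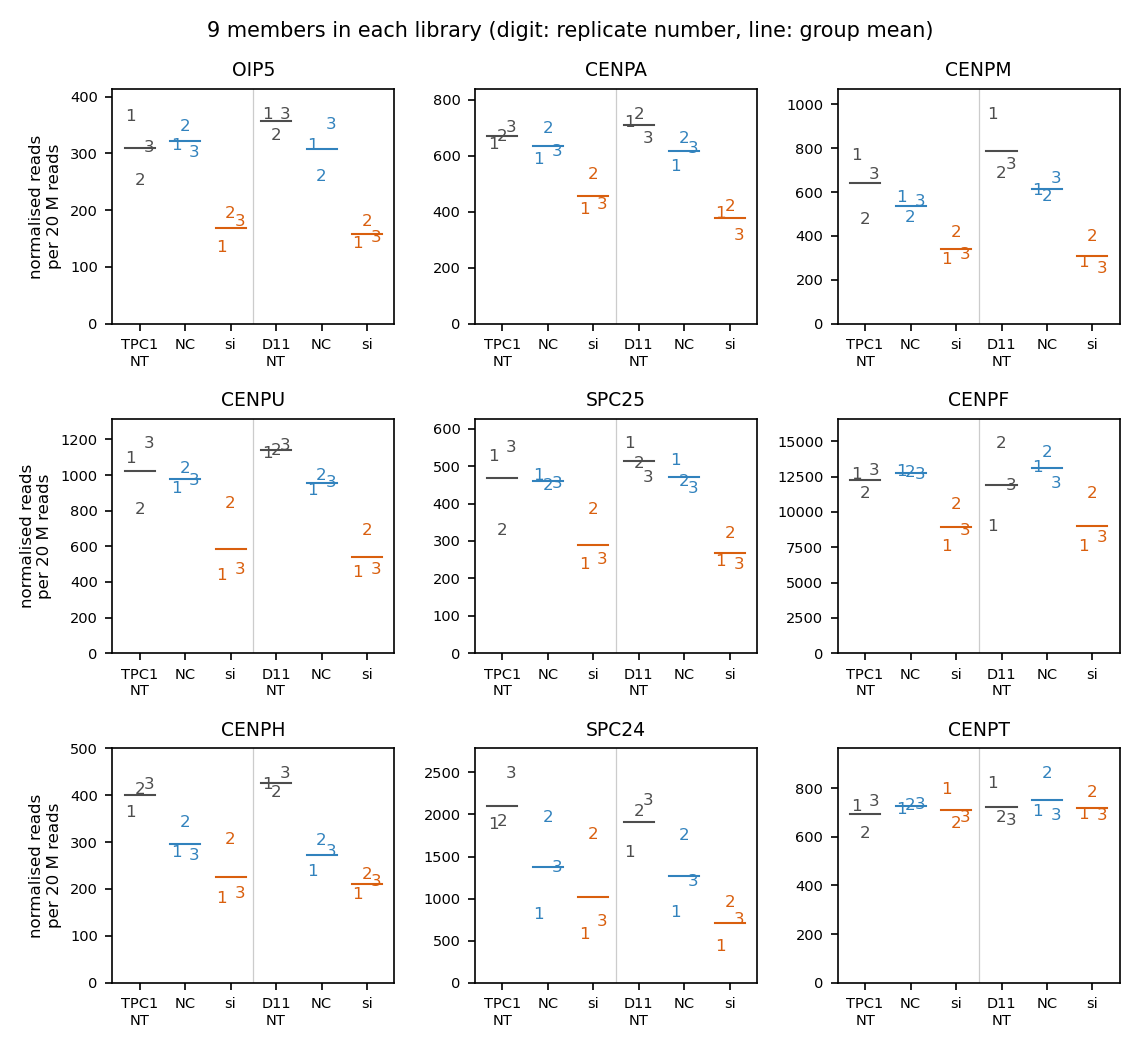
Normalised read counts per 20 M reads of 9 members in every library, with the replicate number as the symbol and the group mean as a line; si stands for siDicer and axes start at 0. CENPH and SPC24 are lower in NC than in NT in most libraries, and the 18 values of CENPT overlap between all groups.

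Within the CCAN the members parted. Of 13 genes, TPC1 had 4 called lower and D11 had 8, with medians of -0.48 and -0.59, and the range ran from -1.19 for CENPM to 0.11 for CENPP. CENPM, CENPQ and CENPU fell most. CENPM (ENSG00000100162, chromosome 22, 41938737 to 41947152), part of the CENP-H, I, K and M unit, was at 766, 475 and 679 in NT of TPC1, 575, 482 and 557 in NC, against 292, 416 and 314 in siDicer. In D11 the values were 955, 684 and 727 in NT, 606, 580 and 662 in NC, against 281, 396 and 250 in siDicer, and no siDicer library overlapped the controls in either line. The changes were -0.78 in TPC1 (SE 0.17, limma adjusted p 0.0138) and -1.19 in D11 (SE 0.17, limma adjusted p 0.000764). The TPC1 call was lost without siDicer replicate 1 (-0.68) or replicate 3 (-0.73).

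CENPU (ENSG00000151725, chromosome 4, 184694085 to 184734130), of the CENP-O, P, Q, U and R unit, is the only member on the S phase list used here. It was at 1092, 804 and 1176 in NT of TPC1, 924, 1037 and 971 in NC, against 439, 842 and 470 in siDicer, where replicate 2 lay above the lowest control. D11 had 1123, 1139 and 1165 in NT, 911, 995 and 957 in NC, against 454, 688 and 472 in siDicer, without overlap. The changes were -0.83 in TPC1 (SE 0.19, limma adjusted p 0.0179) and -0.98 in D11 (SE 0.14, limma adjusted p 0.000698). CENPQ, of the same unit, showed the largest TPC1 change of the set, -1.11 (SE 0.26), from controls of 271 to 393 to siDicer values of 103, 272 and 122. In D11 it went from 286 to 376 to 121, 224 and 129, a change of -1.16 (SE 0.18). Both TPC1 calls were lost against NT alone (-0.86 for CENPU and -1.11 for CENPQ), against NC alone (-0.81 and -1.11), without siDicer replicate 1 (-0.66 and -0.84) and without replicate 3 (-0.71 and -0.96).

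CENPO and CENPP, of the same unit, were called in neither line. CENPO lay at 1508, 1753 and 1520 in siDicer of TPC1 and 1503, 1907 and 1497 in D11, 76.8% and 72.4% of the control mean. In D11 every siDicer library of CENPO lay below every control (2071 to 2471), and its change of -0.47 passed the test but not the fold change minimum. CENPP was at 827 to 1007 in the TPC1 controls and 927, 1171 and 976 in siDicer, and at 901 to 1034 and 968, 1162 and 900 in D11. Its changes were 0.11 (95% interval -0.10 to 0.33) and 0.08 (-0.14 to 0.29), with overlapping groups. Without siDicer replicate 2 the D11 value was -0.029. IPPK and another gene on the opposite strand share 43.2% of the exonic bases of CENPP. ADCY3 and PTRHD1 share 31.6% of those of CENPO. Other genes share 23.1% of those of CENPN, 20.2% of those of CENPT and 14.9% of those of CENPU. In all, 7 members share over 10%.

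CENPT, a histone-fold protein that holds the Ndc80 complex, had 723, 613 and 747 in NT of TPC1, 713, 731 and 734 in NC, against 795, 653 and 680 in siDicer. In D11 it had 821, 679 and 667 in NT, 704, 862 and 686 in NC, against 692, 783 and 686 in siDicer. The groups overlapped throughout, and the changes were -0.004 in TPC1 (95% interval -0.22 to 0.21) and -0.03 in D11 (-0.27 to 0.22), with a sign that turned under TMM or RLE scaling (0.025 and 0.034 in TPC1, 0.011 and 0.011 in D11). CENPC, which links CENP-A nucleosomes to the Mis12 complex, changed by -0.28 (-0.59 to 0.03) in TPC1 and -0.18 (-0.52 to 0.15) in D11, and was not called. CENPW, the histone-fold partner of CENPT, was called in D11 (-0.69, SE 0.18, limma adjusted p 0.0169), from 635, 359 and 487 in NT and 387, 357 and 373 in NC to 278, 285 and 228 in siDicer. It was not called in TPC1 (-0.36, SE 0.14, limma adjusted p 0.102), where siDicer values were 281, 359 and 280 against controls of 341 to 468. The D11 call of CENPW was lost against NC alone (-0.50), without NT replicate 1 (-0.57) and without siDicer replicate 3 (-0.59).

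The values of CENPH also parted NC from NT. CENPH was at 364, 413 and 422 in NT of TPC1, 277, 341 and 271 in NC, against 180, 306 and 191 in siDicer. In the clone, NT stood at 423, 405 and 447, NC at 238, 303 and 279 and siDicer at 188, 230 and 215. Every NC library thus lay below every NT library in both lines. Against the joined controls CENPH changed by -0.64 in TPC1 (SE 0.20, limma adjusted p 0.0540) and -0.69 in D11 (SE 0.20, limma adjusted p 0.0240). Against NC alone the D11 change was -0.37 and was not called, and against NT alone the TPC1 change was -0.86 and was called. The D11 call did not hold without siDicer replicate 1 (-0.61) or 3 (-0.71) as well as without both libraries numbered 2, NT and siDicer (-0.70).

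Of the remaining CCAN genes, CENPI, CENPK, CENPL and CENPN changed by -0.37 to -0.62 in TPC1 and by -0.45 to -0.62 in D11. CENPI was called in both lines, CENPK (-0.59, SE 0.13, limma adjusted p 0.00671) and CENPN (-0.59, SE 0.11, limma adjusted p 0.00241) in D11 alone, and CENPL in neither. CENPN, which recognises CENP-A nucleosomes, had D11 siDicer values of 777, 932 and 743 against controls of 1063 to 1331, and TPC1 siDicer values of 744, 1002 and 812 against 931 to 1376 (-0.50, SE 0.13, limma adjusted p 0.0305). CENPK had 237, 313 and 260 against 361 to 466 in D11, and 278, 429 and 263 against 392 to 472 in TPC1 (-0.48, SE 0.15, limma adjusted p 0.0539). The D11 calls of CENPI, CENPK and CENPN were lost under TMM (-0.58, -0.55 and -0.55) and RLE (-0.58, -0.55 and -0.55), all on the near side of the minimum. In all they were lost in 5, 8 and 9 of 22 settings, among them leaving out siDicer replicate 1 (-0.55, -0.50 and -0.56) or 3 (-0.54, -0.57 and -0.52), and for CENPK and CENPN also NC alone (-0.53 and -0.54). The TPC1 call of CENPI was lost in 5 of 22, among them RLE (-0.58), NT alone (-0.59) and leaving out siDicer replicate 1 (-0.49).

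The Mis12 complex joins the CCAN to the outer kinetochore and had the medians nearest 0 among the roles. Only MIS12 was called, in TPC1 alone, and the medians of its 4 genes were -0.29 in TPC1 and -0.36 in D11. MIS12 was at 256, 274 and 290 in NT of TPC1, 219, 262 and 226 in NC, against 125, 231 and 146 in siDicer (-0.65, SE 0.18, limma adjusted p 0.0375). In D11 it was at 252, 284 and 269 in NT, 266, 253 and 250 in NC, against 181, 205 and 167 in siDicer (-0.51, SE 0.11, limma adjusted p 0.00764), without overlap but under the fold change minimum. The TPC1 call was lost in 9 of 22 settings, among them NC alone as control (-0.54) and leaving out siDicer replicate 1 (-0.46) or 3 (-0.57). DSN1 changed by -0.46 and -0.51 and was not called, though its D11 change passed the test. NSL1 lay at 702 to 812 in the TPC1 controls and 754, 769 and 752 in siDicer, and at 723 to 851 and 804, 766 and 747 in D11. Its changes were -0.04 (95% interval -0.21 to 0.13) and -0.03 (-0.23 to 0.16). The D11 sign of NSL1 turned with TMM scaling (0.0032) and RLE scaling (0.0038). PMF1 changed by -0.11 and -0.20 with overlapping groups, and 23.3% of its exonic bases belong to the readthrough gene PMF1-BGLAP as well.

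Of the Knl1 complex, KNL1, the scaffold of the spindle checkpoint, was not called in either line (-0.47 in each). Its partner ZWINT was called in D11, from 4167, 3898 and 3824 in NT and 3747, 3383 and 3390 in NC to 2169, 2886 and 2010 in siDicer (-0.68, SE 0.12, limma adjusted p 0.00194). In TPC1 ZWINT had 2009, 3360 and 2158 in siDicer against controls of 2748 to 4033 (-0.49, SE 0.16, limma adjusted p 0.0661). Without siDicer replicate 3 the D11 call was lost (-0.57), and without siDicer replicate 2 ZWINT was called in TPC1 (-0.72).

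The Ndc80 complex, which grips the microtubule, had 2 of 4 genes called in TPC1 and 3 of 4 in D11, with medians of -0.65 and -0.82. SPC25 (ENSG00000152253, chromosome 2, 168834132 to 168913371), a subunit of its anchoring end, was at 525, 327 and 550 in NT of TPC1, 476, 449 and 454 in NC, against 237, 383 and 250 in siDicer. In D11 the values were 560, 508 and 470 in NT, 514, 459 and 440 in NC, against 246, 319 and 236 in siDicer. The groups overlapped in TPC1, where NT replicate 2 lay below siDicer replicate 2, and not in D11. SPC25 changed by -0.69 (SE 0.19, limma adjusted p 0.0328) in TPC1, a call lost in 9 of 22 settings, and by -0.89 (SE 0.13, limma adjusted p 0.000676) in D11, a call lost in 0 of 22. NUF2 changed by -0.61 and -0.75 and was called in both lines, a TPC1 call lost in 6 of 22 settings, among them RLE (-0.58), NT alone (-0.57), NC alone (-0.66) and leaving out siDicer replicate 1 (-0.46) or 3 (-0.56). NDC80, its partner in the microtubule-binding end, changed by -0.43 and -0.48 and was called in neither. In D11 its siDicer values of 679, 1105 and 817 all lay below the controls (1124 to 1294). That change passed the test but not the fold change minimum.

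SPC24, the partner of SPC25, varied more between control libraries, relative to its mean, than any other member in both lines. It was at 1886, 1921 and 2491 in NT of TPC1, 807, 1969 and 1368 in NC, against 570, 1763 and 724 in siDicer. In D11 it was at 1551, 2036 and 2162 in NT, 834, 1748 and 1208 in NC, against 435, 959 and 747 in siDicer. Replicate 1 of NC was the lowest control in both lines, and siDicer overlapped the controls in both. The change was -0.87 in TPC1 (SE 0.38, limma adjusted p 0.149) and -1.16 in D11 (SE 0.29, limma adjusted p 0.0137). The D11 call did not hold with NC as the only control (-0.83) or without siDicer replicate 1 (-0.84), and in TPC1 a call appeared without siDicer replicate 2 (-1.35).

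The Ska complex, which keeps kinetochores on shortening microtubules, had 0 of 3 genes called in TPC1 and 2 of 3 in D11. SKA1 was at 807, 681 and 878 in NT of TPC1, 708, 746 and 709 in NC, against 478, 626 and 547 in siDicer (-0.46, SE 0.11, limma adjusted p 0.0230), without overlap. D11 had 824, 824 and 818 in NT, 838, 682 and 640 in NC, against 516, 567 and 441 in siDicer (-0.60, SE 0.12, limma adjusted p 0.00492), a call lost in 8 of 22 settings: TMM and RLE scaling (-0.56 in each), NC alone (-0.50), and leaving out any NT library (-0.58 in each), NC replicate 1 (-0.57) or siDicer replicate 3 (-0.50). SKA3 went from 833 to 1025 in the D11 controls to 516, 739 and 504 (-0.70, SE 0.13, limma adjusted p 0.00266). In TPC1 the siDicer values of SKA3 were 488, 688 and 541, and NT replicate 2, at 533, lay among them (-0.57, SE 0.19, limma adjusted p 0.0679). Without that control SKA3 was called (-0.71). SKA2, whose gene holds MIR301A and MIR454, changed by -0.16 and -0.22 and was not called.

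The corona genes CENPE, a kinesin, and CENPF, a microtubule-binding protein, were separate from the controls in TPC1. CENPF was at 12662, 11308 and 12903 in NT, 12882, 12776 and 12655 in NC, against 7525, 10544 and 8714 in siDicer there. In D11 it was at 8944, 14837 and 11906 in NT, 13168, 14234 and 12028 in NC, against 7558, 11343 and 8193 in siDicer, and NT replicate 1 overlapped siDicer. The changes of CENPF were -0.50 (SE 0.10, limma adjusted p 0.00960) and -0.48 (SE 0.16, limma adjusted p 0.0492), both under the minimum. CENPE had siDicer values of 1316, 1846 and 1369 against controls of 1932 to 2447 in TPC1 (-0.59, SE 0.12, limma adjusted p 0.00979) and 1252, 1465 and 1097 against 1557 to 2456 in D11 (-0.65, SE 0.15, limma adjusted p 0.00994). The TPC1 call of CENPE lay at the minimum and was lost with TMM scaling (-0.56) or RLE scaling (-0.55) and in 9 of 22 settings in all, and the D11 call was lost without siDicer replicate 3 (-0.55).

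CENPJ, the centriole protein, went from 391, 345 and 424 in NT and 384, 434 and 340 in NC of TPC1 to 228, 354 and 210 in siDicer (-0.58, SE 0.16, limma adjusted p 0.0370), just under the minimum. In D11 it went from 317, 426 and 355 in NT and 330, 447 and 321 in NC to 194, 297 and 197 (-0.69, SE 0.17, limma adjusted p 0.0113), which was called. The D11 call was lost without siDicer replicate 1 (-0.58) or 3 (-0.59). This gene of another organelle thus showed changes within the range of the kinetochore genes.

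Constitutive members were then set against those that come to the kinetochore for part of the cycle. The constitutive class holds CENPA and the CCAN (14 genes) and the recruited class the others without CENPJ (18 genes). In TPC1, 4 of 14 and 6 of 18 were called lower, with median changes of -0.49 and -0.54. In D11, 9 of 14 and 10 of 18 were called lower, with medians of -0.61 and -0.63. By library, the constitutive median was -0.67, -0.23 and -0.59 in siDicer replicates 1 to 3 of TPC1 and the recruited median -0.77, -0.15 and -0.65. In D11 they were -0.70, -0.38 and -0.69 against -0.69, -0.35 and -0.82. The order of the classes was therefore not the same in all 6 siDicer libraries.

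A second split followed the transcript. CENPA, HJURP, CENPE, CENPF, NDC80 and NUF2 are on widely used G2/M lists and CENPU is on an S phase list, and the other 26 are on neither. Of the 7 listed members, TPC1 had 4 called lower and D11 had 5, with medians of -0.59 and -0.75. Of the 26 others, 6 and 15 were called, with medians of -0.49 and -0.60. The listed median lay below the other in all 6 siDicer libraries, at -0.77, -0.24 and -0.71 against -0.73, -0.13 and -0.63 in TPC1, and at -0.80, -0.43 and -0.86 against -0.62, -0.35 and -0.70 in D11. These differences were not tested, and the classes overlapped widely, since OIP5, CENPM and CENPQ are on neither list.

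**Figure D4:**
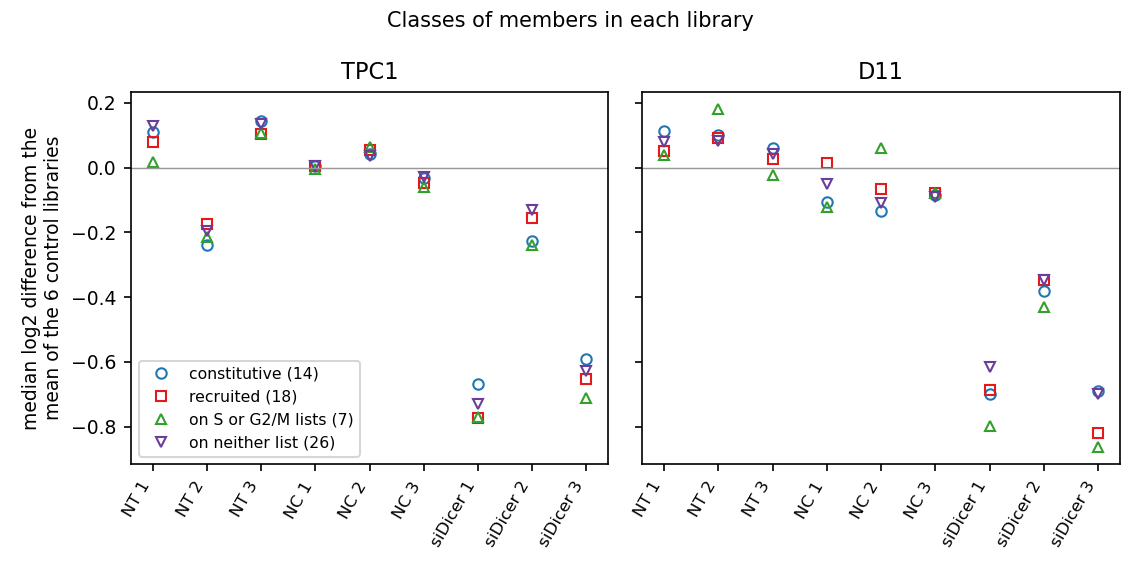
Median log2 difference from the mean of the 6 control libraries of a line, in each library, for constitutive (14) and recruited (18) members and for members on S or G2/M lists (7) or on neither (26). The classes run together, with the widest spread in D11 NC replicate 2 (-0.13 for constitutive members to 0.061 for listed ones), and all lie at -0.59 or lower in siDicer replicates 1 and 3.

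By promoter, the 14 members with a CHR had median changes of -0.50 in TPC1 and -0.68 in D11, and the 13 matched members without one -0.48 and -0.51. Of those with a CHR, 4 and 10 were called lower, and of those without, 5 and 6. The 4 members with E2F letters had medians of -0.74 and -0.90, the other 23 matched members -0.48 and -0.59. The ranges overlapped, and CENPQ, without a CHR, changed more than any member with one.

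General cell cycle genes were called lower as well. The 12 S phase genes gave 2 calls in TPC1 and 7 in D11, all lower, and the 12 G2 and M phase genes 7 and 9, all lower. Summed over the list, the G2 and M phase genes lay at 46957 to 67552 in the TPC1 controls and 35978 to 47252 in siDicer, and at 57389 to 66579 and 34597 to 46372 in D11. The S phase genes lay at 32704 to 52247 and 26896 to 39099 in TPC1, and at 43512 to 54395 and 28481 to 38719 in D11. In such bulk libraries, fewer cells in a phase and less RNA per cell cannot be told apart, and the part of the cell cycle lists in the members' changes was not tested. Of 11 regulators of the DREAM system and its activating counterpart, LIN54 was called lower in TPC1 (-0.64) and FOXM1 in D11 (-0.70), with list medians of -0.31 and -0.40. Of 6 fibroblast markers 3 were tested in TPC1 and 2 in D11. The summed level of the 6 was 186 to 266 in the TPC1 controls and 385 to 796 in siDicer, and 55 to 133 and 151 to 253 in D11, with LUM and PDGFRB called higher in TPC1, PDGFRB in D11, and DCN listed at 0 in all libraries. Of 8 thyroid and 6 epithelial markers, HHEX was called lower in D11 (-0.63) and KRT7 higher in TPC1 (0.82). The part of these markers in the members' changes was not tested.

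Centromere and kinetochore genes outside the 33 were looked at in the same way. Of 26 such genes, among them spindle checkpoint and chromosomal passenger genes, the calls were 8 lower in TPC1, 14 lower in D11 and 0 higher in either, with medians of -0.49 and -0.67. The smallest adjusted p-values of this list in D11 were those of SGO1, the protector of sister chromatid cohesion, MAD2L1, a checkpoint protein, and KNSTRN, a spindle and kinetochore protein. MAD2L1 was at 1790 to 2473 in the TPC1 controls and 470, 1199 and 568 in siDicer, and at 1961 to 2491 and 510, 977 and 541 in D11, changes of -1.66 (SE 0.24) and -1.78 (SE 0.18). SGO1 changed by -1.15 and -1.37 and KNSTRN by -1.04 and -1.11. No member of the 33 changed as much as MAD2L1.

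NC was also set against NT, since both form the control group. In TPC1 0 of 33 members were called (0.111% of all genes; 0 with voom), 2 had an unadjusted p under 0.05 (CENPH and SPC24; 11.1% of all genes did), and the smallest adjusted p was 0.304. In D11 0 were called (0.35%; 0 with voom), 4 had an unadjusted p under 0.05 (CENPH, CENPM, CENPU and SPC24; 13.6% of all genes did), and the smallest adjusted p was 0.10. The change lay below 0 in 26 of 33 members in D11 (47.3% of all genes) and in 15 in TPC1 (49.8%). Same-numbered libraries deviated together in 9 of 9 pairs of D11 and in 8 of 9 of TPC1. So did 3 of 18 differently numbered pairs in each line. With the replicate block 2 members were called in D11, CENPH (-0.64, SE 0.14, limma adjusted p 0.0407) and SPC24 (-0.65, SE 0.14, limma adjusted p 0.0403), both lower in NC. The block raised the calls over all genes in D11 too, to 1.75%. For TPC1 the block called 0 members lower. Of all genes it called 1.47% lower, in place of 0.0777% in the main fit. In TPC1 SPC24 overlapped, with NC replicate 2 (1969) above NT replicates 1 and 2. The TPC1 changes of CENPH and SPC24 were -0.44 and -0.68.

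The heterozygous clone was compared with TPC1 in the 12 control libraries. DICER1 itself was lower in D11 (-0.68, SE 0.12, limma adjusted p 0.00561). None of the 33 members was called (1.02% of 18814 genes), and voom also gave 0. An unadjusted p under 0.05 was found for 1 member (9.85% of all genes). The smallest limma adjusted p was 0.499, that of CENPM (0.26, SE 0.12). The changes ran from -0.18 for CENPE to 0.26, with a median of 0.028.

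The interaction of line and siDicer asked whether the members responded differently in the lines. Of 33 members 0 were called (0% of 19181 genes), and voom also gave 0. An unadjusted p under 0.05 was found for 0 members and for 0.693% of all genes, so this count does not set the members apart. The fall was larger in D11 in 29 of 33 members, with a median difference of -0.091 (D11 minus TPC1). The difference lay below 0 in 51.5% of all genes. CENPA had the smallest p, with a difference of -0.29 (95% interval -0.63 to 0.05, unadjusted p 0.0871), and CENPM the largest difference, -0.41 (-0.94 to 0.13). Without TPC1 siDicer replicate 2 the median difference turned to 0.065, and without D11 siDicer replicate 2 it was -0.22. The larger number of calls in D11 was therefore not shown to be a difference between the lines.

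Levels of different genes can be compared only per length, here the summed exonic bases of all annotated transcripts. In the D11 control group ZWINT stood highest, at 1571 ± 128 normalised reads per kb (SD, n = 6), before CENPF at 1004 ± 169 and SKA2 at 646 ± 41.5. CENPC (54.6 ± 9.3) and NSL1 (57.1 ± 3.3) stood lowest and did not differ beyond their spread. Their lengths were 8496 and 13867 bases. Such a length counts transcripts that may not be expressed, so the order holds for this scale only. Within the Ndc80 complex, SPC24 lay at 560 ± 178, NUF2 at 429 ± 39.1, NDC80 at 333 ± 19.9 and SPC25 at 269 ± 24. The TPC1 control group gave ZWINT 1459 ± 190, CENPF 1005 ± 48.8, CENPC 56.2 ± 5.9 and NSL1 56.3 ± 2.9 on the same scale.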

How the data were processed

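Values of 18 libraries in 6 groups were taken from a single table. Per the methods and labels, the authors aligned reads with STAR 2.5.3a to GRCh38, counted them per gene with HTSeq 0.9.1 and scaled each library to 20 M reads; the deposited values are such a normalised score, rounded up, not read counts. The authors used edgeR per their methods. The authors used DESeq2 for a gene list of D11. Both need counts, so limma-trend took their place here. Depth (11.3 to 23.2 M reads) was read from the steps between values, and 99.6% or more of the values fell on such steps.

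Values were taken as log2(value + 1), on which scale fold changes of low genes are understated. Genes that reached 10 in 3 or more libraries of a fit entered limma 3.58.1 in R 4.3.3, with Benjamini-Hochberg adjustment over all genes tested. Calls needed an adjusted p below 0.05 and a 1.5-fold change. The fits were run on simulated data with independent libraries, the same effect in every siDicer library and no replicate pairing. The real libraries deviated by replicate number and siDicer replicate 2 stood apart, so that run does not measure how reliable these calls are. Same-numbered libraries deviated together (correlation over 0.1) in 9 of 9 pairs in D11 (0.108 to 0.504) and in 8 of 9 in TPC1 (0.0994 to 0.542). Differently numbered libraries did so in 3 of 18 pairs in each line (highest 0.206 in D11 and 0.195 in TPC1). By this measure the numbers pair the D11 libraries and nearly all TPC1 libraries, but not these alone. Main fits had no block in either line, and the block is an alternative. SEs and adjusted p-values leave this pairing out, except where the block is named. The members, gene lists and alternatives were chosen with earlier results of these data known. All 33 members were described, with full statistics for the 5 smallest adjusted p-values in either siDicer comparison and for members whose call differed between lines; DICER1, and the 3 smallest adjusted p-values in D11 of the list of other centromere genes, were added. Positions come from GENCODE release 44 and promoters from RefSeq (GRCh38.p14), both by gene name or identifier.

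Alternative settings were scaling by TMM or by RLE, dropping the low-value filter or requiring a mean of 100, a pseudocount of 0.1 or 10, calls without the 1.5-fold limit, controls from NT only or NC only, the replicate number as a block, 1 fit over the 18 libraries, grouping by title, voom on the recovered reads, and omission of single libraries.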

Additional observations from a re-analysis of the deposited data

Results flagged for a closer look

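In the 6 control libraries of each line, the lowest or highest library was set against the rest for each of the 33 members, 66 groups of 6 values. A gap to the nearest library, relative to the range, above Dixon's critical value was found in 7 of them. For independent groups chance gives about 1 in 20, or 3.3 of 66. These groups share their libraries and join NT with NC, so 7 cannot be weighed against 3.3. TPC1 NT replicate 2 was the library set apart in 6 of the 7, each time as the lowest. It held 1543 for CENPO against 2074 to 2365 in the other controls, 827 for CENPP against 953 to 1007, 613 for CENPT against 713 to 747, 702 for NSL1 against 787 to 812, 533 for SKA3 against 841 to 998 and 11308 for CENPF against 12655 to 12903. In D11, NT replicate 1 was the highest for MIS18A, at 528 against 388 to 439. No member moved one way in every siDicer library of TPC1 and the other way in every siDicer library of D11.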

How the results depend on the processing

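Of the settings with the groups of the descriptions and no single library left out, those that moved a count of called members by over 1.5 times were, in TPC1, no fold change minimum (16 lower in place of 10, with 7.94% of all genes in place of 4.16%), and the fits with fewer controls, NT alone (4, with 2.74% of all genes) and NC alone (5, with 3.09%). In TPC1 the members below every control library in every siDicer library numbered 11 against NT alone (17.0% of all genes) and 20 against NC alone (18.8%), in place of 7 (9.91%), and fewer controls make separation easier for every gene. Grouping by title gave 0 members called lower in each line (0% of all genes in each) and medians of -0.014 in TPC1 and -0.093 in D11. Each title group mixes NT, NC and siDicer libraries of the descriptions, so that setting does not compare siDicer with controls. With single libraries omitted, 1 to 23 members were called lower in TPC1 (1.41% to 6.83% of all genes) and 11 to 26 in the clone (4.27% to 7.44%). The medians were -0.70 to -0.41 and -0.73 to -0.55. Members separate from the controls then numbered 7 to 28 in TPC1 (18 without NT replicate 2, with 14.6% of all genes, and 28 without siDicer replicate 2, with 20.2%) and 24 to 29 in D11 (14.7% to 18.7%). Leaving out the NT and siDicer libraries numbered 2 together, added after seeing the data, gave 23 called (7.84% of all genes), 31 separate (24.8%) and a median of -0.74 in TPC1, and 22 called in D11 (6.20%). Members called higher numbered 0 in all settings run. The replicate block gave 11 lower members for TPC1 (5.49% of all genes), 20 for D11 (7.49%) and 2 in NC against NT of D11 (1.75% called), and changed no other count by over 1.5 times. The shift of the median over all genes by scaling stayed under 0.1.

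With the groups of the descriptions, signs turned in CENPT, CENPP and NSL1 alone, whose changes lay near 0. CENPT in TPC1 was 0.025 with TMM, 0.034 with RLE, 0.031 against NT alone, 0.0015 with voom, 0.011 without the NT and siDicer libraries numbered 2, and -0.089 to 0.053 leaving out single libraries. In D11 it was 0.011 with TMM, 0.011 with RLE, -0.11 without the libraries numbered 2 and -0.089 to 0.020 leaving out single libraries. CENPP was -0.028 in TPC1 and -0.027 in D11 without the libraries numbered 2, and up to 0.18 in TPC1 and -0.029 to 0.16 in D11 leaving out single libraries. NSL1 in D11 was 0.0032 with TMM and 0.0038 with RLE. Groups from the titles mix the conditions of the descriptions, so their values are not changes in siDicer against controls. With groups from the titles, signs turned also in genes with large changes, and the TPC1 values were OIP5 0.023, CENPI 0.026, CENPL 0.035, CENPM 0.034, CENPN 0.082, CENPO 0.053, CENPT 0.035, CENPW 0.015, NSL1 0.013, SPC24 0.012, SPC25 0.038, SKA1 0.069, SKA3 0.12 and CENPF 0.019. In D11 they were OIP5 0.10, CENPH 0.071, CENPK 0.071, CENPP -0.094, CENPQ 0.013, NSL1 0.0089, PMF1 0.14 and SPC24 0.16. The causes of the turns with the groups of the descriptions were not tested. The lowest value of any member, 103, lay above that of 3 reads (2.58 to 5.32) in every library.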
